A study of Mus musculus with 2 samples.

Results

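Glycosyltransferases of the Golgi build the sugar chains of glycoproteins and glycolipids. In differentiated C2C12 myotubes, 77 such genes were compared between the array of cells that received an estrogen receptor α in constitutively active form (Ad-caERα) and the array of the control vector (Ad-DsRed). Members were the single-gene probe sets whose annotated symbol starts with Galnt, Mgat, B3gnt, B4galt, B3galt, St3gal, St6gal or St8sia, or with Fut and a digit. A gene with more than 1 probe set was represented by the one with the highest mean signal. The 77 genes form 9 families among 19938 named genes. RefSeq lists 79 protein-coding genes with these stems. The other 2 were not analysed here: B4galt2, whose probe set is shared with another gene, and Fut1. The stems are a rule of naming, and the St6gal stem takes in both the St6gal and the St6galnac enzymes.

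C2C12 is a mouse myoblast line that fuses into multinucleate myotubes when serum is withdrawn. Both groups were C2C12 cells grown with 10% fetal bovine serum and held for 7 days in 2% horse serum. Adenovirus was then added at m.o.i. 30 and RNA was taken from cells infected for 48 h. By the labels, the 2 groups differ in the adenovirus only, which encodes either the constitutively active receptor or the red fluorescent protein DsRed. The promoter of the vectors, the form of the receptor and the number of cultures behind each RNA are not given in the labels. Each group has 1 array, so no difference below has a replicate check, and p-values and standard errors could not be computed.

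Sugar chains are assembled stepwise as a protein or lipid passes through the Golgi. Enzymes of the Galnt family start mucin-type O-glycans by placing N-acetylgalactosamine on serine or threonine. Mgat enzymes add the N-acetylglucosamine branches of N-glycans. B3gnt and B4galt enzymes alternate to extend lactosamine chains, and B3galt enzymes add galactose in another linkage. St3gal, St6gal and St8sia enzymes cap chains with sialic acid, and Fut enzymes add fucose. In muscle, glycans of dystroglycan, of the neural cell adhesion molecule and of membrane gangliosides have been studied most.

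Values are log2 signals of probe sets. A gene was called measured when its higher signal passed a detection floor of 5.11. The floor was the 95th percentile over 1212 olfactory or vomeronasal receptor probe sets, for genes which muscle cells are not thought to express. These receptor genes were themselves never counted as measured, whatever their signal. Of the 77 members 43 were measured, 41 of them above the floor on both arrays. Every difference is in log2 units, positive where Ad-caERα was higher. Esr1, the gene of the receptor, read 7.38 in Ad-DsRed and 8.44 in Ad-caERα. All 10 myotube markers were measured, with differences from -0.37 to 0.22. Leukocyte, endothelial, adipocyte and epithelial markers were measured for 7 of 17 genes. With Ad-DsRed first, leukocyte Cd68 read 6.38 and 6.62, and endothelial Tek 6.73 and 6.60. Adipocyte Plin1 read 5.64 and 5.40, and Cidec 5.58 and 5.26. Of the 4 epithelial markers 3 were measured: Krt8 at 6.50 and 6.28, Krt18 at 5.44 and 5.27, and Cdh1 at 5.13 and 5.03. Ptprc, Csf1r, Adgre1, Lyz2, Pecam1, Cdh5, Kdr, Adipoq, Fabp4 and Epcam were below the floor on both arrays. As yardsticks, the difference had an SD of 0.22 over the receptor probe sets, and probe sets that share a gene differed with an SD of 0.13, over 770 genes. In cultures measured in bulk, fewer cells of a type and less RNA per cell cannot be told apart.

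Among the 43 measured members, 2 were higher by at least 2-fold in Ad-caERα, B3gnt8 and Galnt18, and 0 were lower by that rule. Over all 13556 measured genes, 0.59% were higher and 0.0959% lower by at least 2-fold. At 1.5-fold the members counted 3 higher, with St6galnac4 added, and 0 lower. The shares of all measured genes past 1.5-fold were 1.82% higher and 0.885% lower. With so few members past either line, 1 gene more or less changes these shares by a large factor. The members' median difference was 0.070 against 0.0017 over all measured genes, and 28 of the 43 were above 0 (65.1%, against 50.2% of all measured genes). Without B3gnt8 the median was 0.059. Centring each array on its median gave 53.5% of members and 43.4% of all measured genes above 0, with medians of 0.034 and -0.036. With no floor, 54.5% of all 77 members and 46.4% of all genes other than the receptor genes were above 0. Within 0.13 of 0 lay 46.5% of the measured members and 47.4% of all measured genes.

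**Figure D1:**
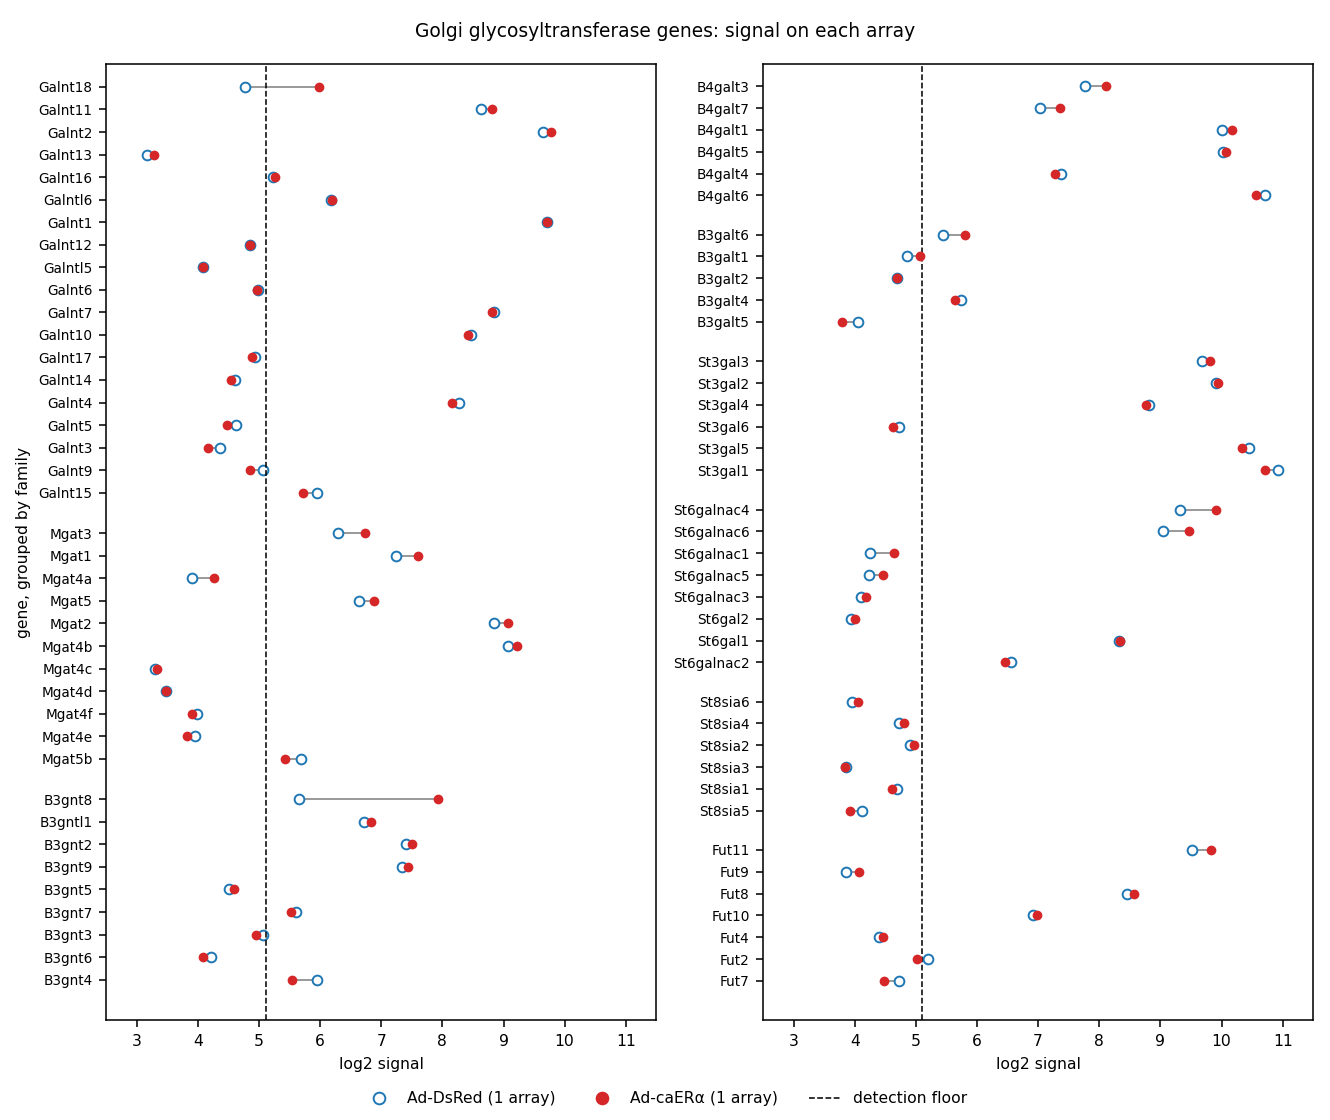
Log2 signal (horizontal axis) of each of the 77 glycosyltransferase genes (vertical axis, grouped by family), with 1 open blue point for the Ad-DsRed array and 1 filled red point for the Ad-caERα array; the dashed line is the detection floor of 5.11. B3gnt8 moves from 5.65 to 7.94 and Galnt18 crosses the floor from 4.77 to 5.98, while for most other genes the points lie close together.

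B3gnt8, which adds N-acetylglucosamine to extend lactosamine chains on branched N-glycans, had the largest difference of the 43 measured members. Its log2 signal was 5.65 in Ad-DsRed and 7.94 in Ad-caERα, a 4.86-fold difference with both arrays above the floor. It ranked 10 from the top among the 13556 measured genes. The other measured genes of the family did not share this size of difference. B3gnt2, a main poly-lactosamine synthase whose product can form a complex with that of B3gnt8, read 7.40 and 7.51 (Ad-DsRed first, here and below). B3gnt9 read 7.34 and 7.43, and B3gntl1 read 6.72 and 6.83. These 3 genes lay between 0.095 and 0.12 above 0, less than the SD of 0.13 between probe sets of a gene. B3gnt7, which acts in keratan sulfate synthesis, read 5.60 and 5.52. B3gnt4 had the lowest difference of all measured members, at 5.95 against 5.54, which is 1.32-fold lower and within the central 95% of all measured genes (-0.44 to 0.51). B3gnt4 overlaps Diablo in the RefSeq annotation, whose difference was 0.25. The family median was 0.10 over 6 genes, and the mean of 0.35 rests on B3gnt8.

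The start regions of B3gnt8 and B3gnt2 are shown as the member with the largest difference and a relative with a small one, and those of St6galnac4 and St6galnac6 as neighbouring genes that were both higher. Each runs from 250 bases before to 50 bases after the RefSeq start (GRCm38.p6), 5′ to 3′ on the gene's strand. Capitals mark GC boxes (GGGCGG or its reverse complement CCGCCC) in the first 3 sequences and estrogen response element half-sites (GGTCA or its reverse complement TGACC) in the last. They are B3gnt8 (chr7:25627374-25627673, plus strand), B3gnt2 (chr11:22859686-22859985, minus strand), St6galnac4 (chr2:32586828-32587127, plus strand) and St6galnac6 (chr2:32599459-32599758, plus strand).
B3gnt8: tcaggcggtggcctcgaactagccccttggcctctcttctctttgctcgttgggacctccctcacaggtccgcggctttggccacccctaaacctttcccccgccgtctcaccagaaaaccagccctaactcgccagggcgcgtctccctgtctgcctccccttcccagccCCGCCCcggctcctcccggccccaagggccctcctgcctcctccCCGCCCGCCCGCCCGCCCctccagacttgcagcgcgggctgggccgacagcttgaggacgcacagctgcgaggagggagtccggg
B3gnt2: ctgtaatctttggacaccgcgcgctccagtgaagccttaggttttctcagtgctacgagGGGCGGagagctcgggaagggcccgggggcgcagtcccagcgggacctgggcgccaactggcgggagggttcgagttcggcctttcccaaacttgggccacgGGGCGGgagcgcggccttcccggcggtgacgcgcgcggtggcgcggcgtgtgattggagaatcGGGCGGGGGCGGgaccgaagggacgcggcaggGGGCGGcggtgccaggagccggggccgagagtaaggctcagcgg
St6galnac4: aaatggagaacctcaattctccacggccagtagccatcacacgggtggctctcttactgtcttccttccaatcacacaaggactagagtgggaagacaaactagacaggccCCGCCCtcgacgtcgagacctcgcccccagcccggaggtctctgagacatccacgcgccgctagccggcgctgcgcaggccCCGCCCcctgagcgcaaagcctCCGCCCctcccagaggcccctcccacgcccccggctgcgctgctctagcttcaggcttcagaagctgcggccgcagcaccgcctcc
St6galnac6: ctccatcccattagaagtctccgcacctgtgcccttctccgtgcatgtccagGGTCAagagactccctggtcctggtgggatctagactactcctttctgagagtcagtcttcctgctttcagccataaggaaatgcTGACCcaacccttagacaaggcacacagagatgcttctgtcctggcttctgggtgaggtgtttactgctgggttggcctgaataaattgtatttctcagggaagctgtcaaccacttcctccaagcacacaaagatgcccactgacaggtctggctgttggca
B3gnt8 and B3gnt2 each hold 5 GC boxes and St6galnac4 holds 3, with overlapping matches counted separately. Those 3 windows hold 0 half-sites, and St6galnac6 holds 2 half-sites and 0 GC boxes. The GC content was 70.3% for B3gnt8, 71.3% for B3gnt2, 65.7% for St6galnac4 and 52.0% for St6galnac6.

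RefSeq windows were found for 57 of the 77 members, 78 windows in all, since some genes have several starts. The full estrogen response element (GGTCA, any 3 bases, then TGACC, which is its own reverse complement) was in 0 of these 78 windows and in 0.0700% of all 32851 windows. A half-site, on its own or within a full element, was in 32.1% of the member windows and 40.5% of all windows. A GC box was in 53.8% of the member windows and 35.7% of all windows. Half-sites were in 10 of the 40 windows of measured members and in 15 of the 38 windows of members below the floor. The median GC content was 60.8% over member windows and 52.7% over all windows. The GC boxes counted in B3gnt8 include overlapping matches, and those in B3gnt2 do not overlap. Any part of these letters in the differences of 2.28 and 0.11 was not tested. These are matches of letters in short windows, and binding was not measured.

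**Figure D2:**
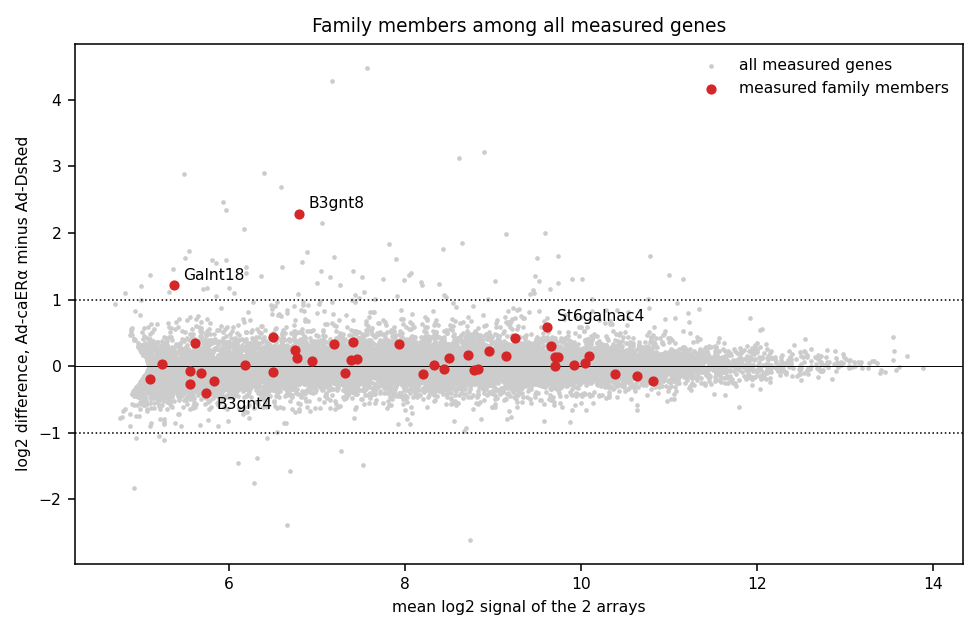
Difference between the arrays (vertical axis, log2, Ad-caERα minus Ad-DsRed) against the mean log2 signal of the 2 arrays (horizontal axis) for all 13556 measured genes (grey) and the 43 measured glycosyltransferase genes (red); dotted lines mark 2-fold. B3gnt8 and Galnt18 lie above the upper line, and the other 41 members lie between the lines.

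Galnt18 was the other member past 2-fold, and it belongs to the Galnt family by its symbol. It read 4.77 in Ad-DsRed, below the floor, and 5.98 in Ad-caERα. The deposited values differ by 2.32-fold, and against the floor the gene was at least 1.83-fold higher, so the 2-fold rule is not met by the bound. Counted with sub-floor values at the floor, 1 member was higher by 2-fold, B3gnt8, beside 0.546% of all measured genes, and 0 were lower, beside 0.0664%. No other measured Galnt gene was past 1.5-fold. Galnt1 read 9.71 on both arrays, and Galnt2, a broadly expressed family member, read 9.64 and 9.78. Galnt7, which prefers acceptors that already carry N-acetylgalactosamine, read 8.85 and 8.81. Galnt10 read 8.46 and 8.42. Galnt11, whose product modifies Notch1, was at 0.17, and Galnt4 was at -0.11. Galnt4 overlaps Poc1b, whose difference was -0.28, and the signals of overlapping genes may not be fully separate. In all, 12 members overlap a nearby named gene. Besides Galnt4, the measured ones are B3gnt4, B3gnt9, B3gntl1, Galntl6, St3gal4 and St6gal1. The lowest member was Galnt15 at 5.95 and 5.72 (-0.23). Galnt16 (0.035) and Galntl6 (0.017) lay near 0. The 3 Galntl6 probe sets differed by 0.017, 0.087 and 0.25, the last of them below the floor on both arrays. Of the 10 measured Galnt genes 6 were above 0, beside 50.2% of all measured genes. Their median was 0.012, and it turned to -0.025 with each array centred and to -0.020 over all 19 genes without a floor.

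Of the 6 measured N-glycan branching genes, 5 were above 0, beside 50.2% of all measured genes. Their median was 0.23. By the 1.5-fold rule 0 were higher or lower, beside 1.82% and 0.885% of all measured genes. Mgat1, which opens the path to hybrid and complex N-glycans, read 7.23 and 7.60. Mgat2, which starts the next antenna, read 8.85 and 9.07. Mgat4b, which adds a further branch, read 9.07 and 9.23. These differences were 0.37, 0.22 and 0.16. The SD over the receptor probe sets, 0.22, is exceeded clearly by that of Mgat1 alone among these 3. Most receptor probe sets lie below the floor, so that SD does not give the scatter at these brighter signals. Neither yardstick holds the spread between cultures. Mgat5 makes the β1,6 branch that lactosamine chains are often built on, and it read 6.64 and 6.88 (0.24). Mgat3, which adds the bisecting N-acetylglucosamine that limits further branching, had the highest difference of the family at 6.29 and 6.73 (0.44, 1.35-fold). Mgat5b, best known for branching O-mannose glycans in brain, was the member below 0, at 5.69 and 5.42 (-0.27). All 6 lay within the central 95% of all measured genes.

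The B4galt galactosyltransferases kept by the rule, without B4galt2, were all measured, 6 of 6. Of these 6, 4 were above 0, beside 50.2% of all measured genes, and the median was 0.10. B4galt1, which makes lactosamine on N-glycans, read 10.01 and 10.17. B4galt3 read 7.77 and 8.11, and B4galt7, which adds the first galactose of the proteoglycan linker, read 7.03 and 7.36. These last 2 genes had the highest differences of the family, both 0.33. B4galt4 was at -0.096. B4galt5 and B4galt6, the lactosylceramide synthases, read 10.02 and 10.07 and 10.71 and 10.56, differences of 0.048 and -0.15. Of 5 B3galt genes 2 were measured. B3galt6, which adds the next galactose of the proteoglycan linker after B4galt7, read 5.44 and 5.80 (0.35). B3galt4, the GM1 ganglioside synthase, read 5.74 and 5.64 (-0.099). Both B3galt genes lay within the central 95% of all measured genes.

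Among sialyltransferases, St6galnac4 and St6galnac6 stood above the rest. St6galnac4, which adds sialic acid to the N-acetylgalactosamine of O-glycans and gangliosides, read 9.32 and 9.91, a 1.51-fold difference just past the 1.5-fold line. With loess correction, quantile normalization or centring its difference was 0.58, 0.57 or 0.56, and it no longer passed. St6galnac6, which makes α-series gangliosides, read 9.04 and 9.46 (1.34-fold). St6galnac2 read 6.55 and 6.46, and St6gal1, the main α2,6-sialyltransferase of N-glycans, read 8.33 and 8.35. The 5 measured St3gal genes had a median of -0.057 and a range from -0.22 to 0.14. St3gal1, which caps core 1 O-glycans, was lowest at 10.93 and 10.71, and its other probe set differed by -0.12. St3gal5, which makes the ganglioside GM3, read 10.45 and 10.33. St3gal2 (0.022), St3gal4 (-0.057) and St3gal3 (0.14) lay on both sides of 0. None of the 6 St8sia genes was measured. These include St8sia2 and St8sia4, the polysialyltransferases of the neural cell adhesion molecule, which read 4.91 and 4.97 and 4.72 and 4.80.

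Fucosyltransferase genes differed little. Fut8, which adds the core fucose of N-glycans, read 8.45 and 8.56. Fut11, a protein O-fucosyltransferase of the secretory pathway, read 9.51 and 9.82 (0.31), and its other probe set differed by 0.52. Fut10 read 6.91 and 6.98. Fut2, which makes the H antigen in epithelia, read 5.20 in Ad-DsRed and 5.01, below the floor, in Ad-caERα, so it was at least 1.07-fold lower. Of the 7 genes 4 were measured, and their median was 0.093.

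**Figure D3:**
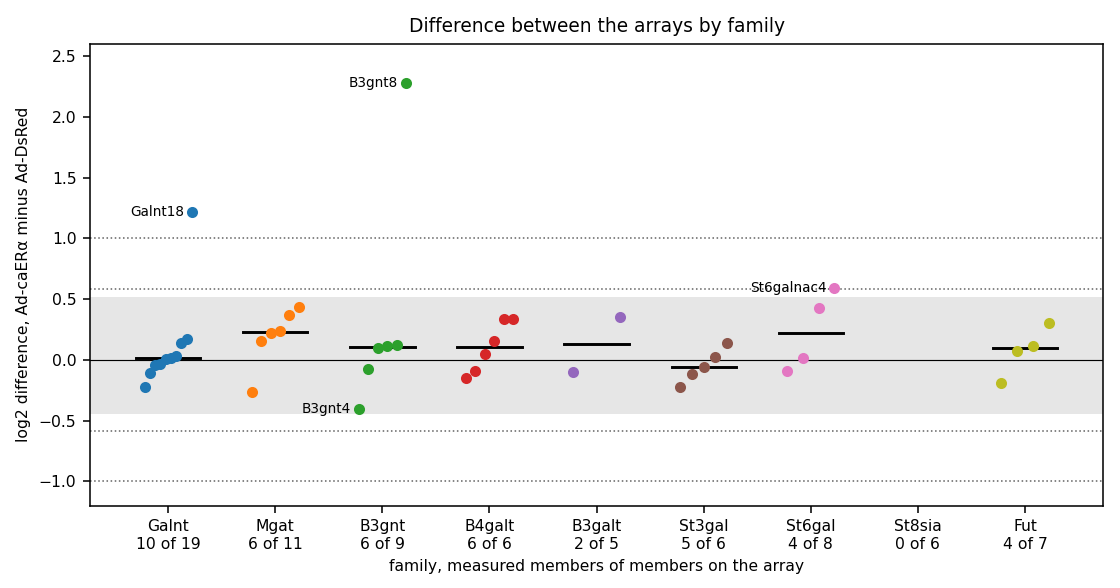
Difference between the arrays (vertical axis, log2, Ad-caERα minus Ad-DsRed) for each measured member (points) by family (horizontal axis, with measured members of those on the array); black bars are family medians, the grey band is the central 95% of all measured genes (-0.44 to 0.51) and dotted lines mark 1.5-fold and 2-fold. Above the band lie 3 members, B3gnt8, Galnt18 and St6galnac4, and 0 lie below it.

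The 34 members that were not measured had higher signals between 3.29 and 5.07, under the floor. They are Galnt3, Galnt5, Galnt6, Galnt9, Galnt12, Galnt13, Galnt14, Galnt17 and Galntl5, then Mgat4a, Mgat4c, Mgat4d, Mgat4e and Mgat4f. The rest are B3gnt3, B3gnt5, B3gnt6, B3galt1, B3galt2, B3galt5, St3gal6, St6gal2, St6galnac1, St6galnac3, St6galnac5, all St8sia genes, Fut4, Fut7 and Fut9. No fold is given for them.

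Positions in the RefSeq gene order were compared after the differences were known. Only genes with a single-gene probe set on the array were placed, so neighbours here are neighbours among those genes. St6galnac4 and St6galnac6 are neighbours, and so are Galnt7 and Galntl6, Galntl5 and Galnt11, and St6galnac5 and St6galnac3. St6galnac5, St6galnac3 and Galntl5 were below the floor on both arrays, so their pairs could not be compared. St6galnac4 and St6galnac6 were at 0.59 and 0.42, and Galnt7 and Galntl6 at -0.037 and 0.017. Next to St6galnac4 and St6galnac6, Ak1, a cytosolic adenylate kinase gene, was at 0.22 and Pip5kl1 was below the floor. B3gnt8 lies between Dmac2, a complex I assembly gene, and Bckdha, a subunit of branched-chain keto acid dehydrogenase. Neither overlaps it. Dmac2 was at 0.28 and Bckdha at 0.65, and Exosc5, an RNA exosome gene beyond Bckdha, was at 0.44. Erich4, beyond Dmac2 on the other side, read 5.27 in Ad-DsRed and 5.09, just below the floor, in Ad-caERα. Of these 4 neighbours 3 were above 0, at smaller sizes than B3gnt8, beside 50.2% of all measured genes, and Erich4 was below 0. Galnt18 lies between Eif4g2 (-0.098) and Usp47 (-0.22), both below 0. The part of the neighbourhood in these differences was not tested.

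The other genes of glycan synthesis came from 6 lists of 86 genes, of which 79 were on the array and 72 measured. By the 1.5-fold rule 1 of the 72 was higher, near the 1.82% of all measured genes, and 0 were lower, beside 0.885%. The median was 0.078 against 0.0017, and 49 of the 72 were above 0, beside 50.2% of all measured genes. The gene past the rule, and past 2-fold, was A4galt, which makes the glycolipid Gb3 from lactosylceramide. A4galt read 8.89 in Ad-DsRed and 10.17 in Ad-caERα, a 2.43-fold difference. Other genes of glycolipid synthesis were as follows. B3galnt1, which acts on the product of A4galt to make globoside, read 6.49 and 6.88 (0.39). Ugcg, the glucosylceramide synthase, read 12.52 and 12.48. B4galnt1, which makes GM2 and GD2, read 8.20 and 8.24.

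In the list of core and other Golgi transferases, with 13 measured genes and a median of -0.032, the lowest was Gcnt4 at 5.65 and 5.26 (-0.39). C1galt1, the core 1 synthase, read 9.77 and 9.81, and its chaperone C1galt1c1 7.74 and 7.70. The Slc35 genes listed as Golgi sugar nucleotide transporters were above 0 in 11 of 13 cases, beside 50.2% of all measured genes. Their median was 0.18. Slc35a2, the UDP-galactose transporter, was highest at 8.08 and 8.51, and Slc35d1 was lowest (-0.013). The 17 measured genes of nucleotide sugar synthesis had a median of 0.071, from Nanp (-0.16) to Galk2 (0.39), and Gne, the gateway enzyme of sialic acid synthesis, read 8.15 and 8.47. N-glycan trimming genes had a median of 0.038 over 13 genes, from Man1c1 (-0.28) to Mogs (0.36).

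The dystroglycan O-mannosyl list, whose genes are mutated in forms of muscular dystrophy, had a median of 0.21 over 12 measured genes. Of these 9 were above 0, beside 50.2% of all measured genes. Pomt1, which starts the O-mannose chain, was highest at 8.99 and 9.55 (1.47-fold), below the 1.5-fold rule. Its partner Pomt2 read 8.75 and 8.77. Pomgnt2 was lowest (-0.17), and Dag1, which encodes dystroglycan itself, read 11.37 and 11.23. Of the 4 sialidases, Neu1, the lysosomal enzyme, was highest at 7.46 and 7.98 (1.43-fold), and Neu4 lowest at 5.23 and 4.97, the latter below the floor, which makes it at least 1.09-fold lower.

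**Figure D4:**
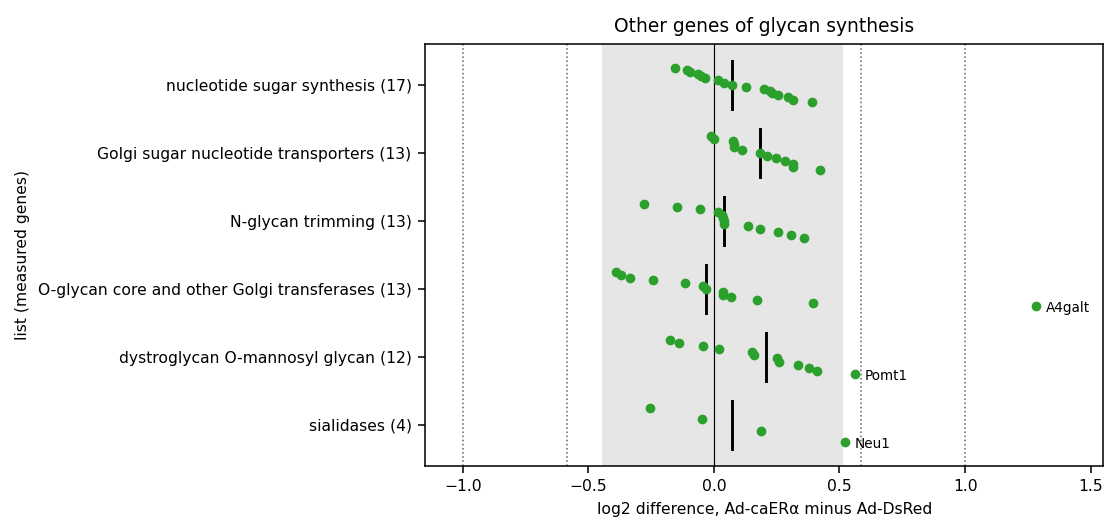
Difference between the arrays (horizontal axis, log2, Ad-caERα minus Ad-DsRed) for the 72 measured genes of the other glycan lists (vertical axis, with the number measured); black bars are list medians, the grey band is the central 95% of all measured genes and dotted lines mark 1.5-fold and 2-fold. A4galt at 1.28 is the one gene past 1.5-fold, and Pomt1 and Neu1 lie between the band and that line.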

How the data were processed

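Total RNA (150 ng per labelling) was profiled on Affymetrix arrays, 1 per vector. The authors deposited RMA log2 signals, 1 per probe set, made with Affymetrix Expression Console per the submitters' processing notes. RMA corrects background, quantile-normalizes arrays and summarizes probes. Tool versions are not given in the labels. The method compresses weak differences and hides changes in total mRNA. Of 35556 probe sets, 21789 had 1 gene in the platform annotation, 1621 several and 12146 none. The gene identifiers of all 77 members matched RefSeq, with 0 symbols changed. Array precision is limited by having 1 array per group.

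Genes were counted by size, at 1.5-fold and 2-fold, over all 13556 measured genes. A fold with 1 array below the floor is given as a bound, the other signal over the floor. The text names members past 1.5-fold, the extremes of each family and list, further members by function, and every member below the floor. Members and lists were chosen with earlier results of these data known. The code was tested on simulated data. Alternatives covered the floor, normalization (loess span 0.3), probe set rule, threshold and list summary. Python 3.11.15, numpy 2.4.6, pandas 2.3.3, statsmodels 0.14.6 and matplotlib 3.10.9 were used.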

Additional observations from a re-analysis of the deposited data

How the results depend on the processing

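No paired analysis was possible because there is a single array for each vector, and no array could be left out. The spread between cultures is unknown, and signals near the floor give only bounds. The count of 2 members higher by at least 2-fold fell to 1 with the floor at the 99th percentile over receptor probe sets or at the median of all probe sets, with sub-floor values raised to the floor, and at a 3-fold threshold. Galnt18 is the gene lost, at 0.87 with raised values, and B3gnt8 stayed. The count of 3 members higher by 1.5-fold was 2 or 3 in each setting run, and that of lower members was 0. The median over members ran from 0.022 without a floor to 0.11 with either higher floor, and the mean was 0.15. The B3gnt median of 0.10 became 0.35 as a mean. The B3galt median of 0.13 became 0.29 with loess correction and 0.28 with quantile normalization, where B3galt1 passed the floor as a further measured member. Of 157 recalculations of 19 named members, 155 moved by less than 0.13, and 0 changed sign. The others were Galnt18 above and Fut11, at 0.52 from its dimmer probe set. Many of the 157 could not move. A higher or absent floor leaves a member's difference as it is, and so does the probe set rule for genes with 1 probe set. Members near 0, such as Galnt1 (0.0064) and St6gal1 (0.016), were not among the 19. With each array centred, the members above 0 fell from 28 to 23 of 43. Measured members ranged from 34 with either higher floor to 77 without one.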

Other observations

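Identical values on both arrays were found for 3 members, all below the floor: B3galt2 at 4.69, Galnt12 at 4.85 and Mgat4d at 3.48. Of all 35556 probe sets, 855 had identical values on both arrays. Among genes of the other glycan lists, Slc35b4 was one, at 9.25, well above the floor.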
